A study of Mus musculus with 25 samples.

Results

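Neuronal nuclei of the hippocampus were profiled in young and aged wild-type mice, and the difference between ages is described here across genes and gene families. The members are the 5 libraries of the aging experiment, out of 25 libraries in the series, chosen by their labels as young or old and wild-type. The 3 young libraries came from male mice at 3 months and the 2 aged libraries from male mice at 18 months, with 1 library for each mouse, and no mouse in either group had been given a virus. Nuclei had been sorted for NeuN, the protein product of Rbfox3 and a marker of most neuronal nuclei, and nuclear RNA was sequenced. Young mice were C57BL/6J from The Jackson Laboratory and aged mice C57BL/6 from the National Institutes of Aging, so that age and source cannot be told apart. The other 20 libraries belong to overexpression and knockdown experiments on Ftl1, a subunit of the iron store ferritin, which were normalized in tables of their own and enter no comparison here.

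The hippocampus holds dentate granule cells, pyramidal neurons of the CA fields and several kinds of GABAergic interneuron, and it serves spatial and episodic memory. RNA of sorted nuclei is rich in unspliced and nuclear-retained transcripts, while messages of housekeeping proteins such as ribosomal proteins are exported and kept mostly in the cytoplasm. Levels are given as normalized counts, which are a gene's reads after scaling by a size factor for each library, and differences as aged minus young on the log2(normalized count + 1) scale. For genes with few reads, that scale can err either way. It can understate the difference where a whole group lacks reads, and overstate it where only 1 library of a group does. Slc7a10, without reads in either aged library, had −6.61 on this scale and −9.16 by DESeq2, a test on reads. Lhx6, without reads in aged replicate 2 alone, had −4.01 on this scale and −1.84 by DESeq2.

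The libraries held between 7969282 and 9537872 reads. Neuronal genes were present in each of them, with Snap25, a protein of vesicle release, between 6832 and 9875 normalized counts, Syt1, the calcium sensor of release, between 13528 and 22394, and Rbfox3 between 1762 and 2960. Slc17a7, the vesicular glutamate transporter, lay between 954 and 2182, and Gad1, an enzyme of GABA synthesis, between 1182 and 2046. The aged libraries were less alike than any other pair, with a Pearson r of 0.785 over the log2 values of the tested genes, against 0.856 to 0.884 between young libraries and 0.803 to 0.832 between ages. Of the genes tested, 317 to 353 were at 0 in the young libraries, 482 in aged replicate 2 and 633 in aged replicate 3. The ribosomal RNA precursor Rn45s took 2.63% to 4% of the young and 5.91% to 6.42% of the aged normalized counts. Eif2s3y, a Y chromosome gene, had at least 543 normalized counts in each library, all of which are labelled male. No pair of libraries was a copy, since the chi-square per degree of freedom was at least 26.6.

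Of 24411 genes in the table, 13712 were tested, those whose normalized counts averaged 10 or more. No gene passed the limits on both the adjusted p (0.05) and the log2 difference (0.5) in limma, whose smallest adjusted p was 0.117, so that 0% of the tested genes were called in either direction. With an unadjusted limma p up to 0.05, higher levels in aged libraries were seen for 398 genes (2.9%) and lower levels for 691 (5.04%), which makes 1089 beside the 686 to be counted if no gene differed. On the recovered reads, edgeR's quasi-likelihood test called 0 genes and gave 434 higher and 603 lower ones with an unadjusted p up to 0.05. DESeq2 on the same reads called 37 genes higher (0.27%) and 120 lower (0.875%), and 151 of these 157 had an unadjusted limma p up to 0.05. Gene by gene, the lowest p that 3 against 2 libraries allow in an exact two-sided permutation test is 0.1. Values below are therefore descriptions, and "above" or "below" means that every aged library lay on one side of every young library. That held for 1675 genes above (12.2%) and 1715 below (12.5%), and these shares are the background for the counts of each family. If no gene differed between ages, a gene would lie above with a probability of 0.1, and below with the same. Most of these genes can therefore not be read as differing with age. The median difference of all tested genes was −0.025, with 48.3% of genes higher.

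Among genes higher in aged libraries, the 10 with the smallest limma p held transporters, enzymes and cell surface proteins. Lars2, the leucyl-tRNA synthetase of mitochondria (chromosome 9 from 123366927 to 123462675 in GRCm38), had 1092, 1234 and 1127 normalized counts in young and 2815 and 2589 in aged libraries. The groups stood apart by more than the spread inside either, with a log2 difference of 1.23 ± 0.26 (SE) and a limma adjusted p of 0.354. Slc6a17, a transporter of neutral amino acids on synaptic vesicles (chromosome 3 from 107467548 to 107518018), had 809, 826 and 1108 in young and 2277 and 2157 in aged libraries. Ftl1 followed in that order, with 1685, 1925 and 2141 in young and 4247 and 4272 in aged libraries. Gsg1l, an auxiliary subunit of AMPA receptors that belongs to the dentate granule cell list, had 333, 284 and 320 in young against 648 and 1230 in aged libraries, which differed from each other by more than the young ones did. Ercc2, a helicase of transcription and nucleotide excision repair, had 303, 180 and 294 against 789 and 621. Rtn4r, the Nogo receptor that limits axon growth, had 297, 615 and 363 against 1078 and 1029. Pcdhb9, H6pd, Efcc1 and Dennd3 completed the 10, with log2 differences of 1.58, 1.76, 2.05 and 1.93. H6pd makes NADPH in the endoplasmic reticulum and Pcdhb9 is a clustered protocadherin. DESeq2 gave an adjusted p of 0.05 or less for each of the 10 except Rtn4r, whose adjusted p was 0.0603.

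Of the 10 genes lower in aged libraries, most had larger differences and few or no reads in the aged group. Gm5512, a transcribed pseudogene on chromosome 19 (12905231 to 12906993), had 158, 221 and 523 normalized counts in young and 3.95 and 1.84 in aged libraries, with the smallest limma adjusted p of all genes, 0.117. Reads of a pseudogene can be shared with its parent gene, so this value is uncertain. Ivns1abp, a kelch-domain protein (chromosome 1 from 151344486 to 151364445), was the most abundant of them with 1902, 1519 and 2071 against 604 and 585, a log2 difference of −1.61 ± 0.28 (SE). Pmpca, a subunit of the peptidase that matures imported mitochondrial proteins, had 1160.5, 1181 and 1290 against 352 and 529. Both genes were well covered in every library. Klf10, an early response transcription factor, had 184, 316 and 329 against 32.6 and 37.7, and Deptor, an inhibitor of mTOR signalling, 249.9, 131 and 149 against 17.8 and 8.27. Glra2, a glycine receptor subunit, had 166, 96.5 and 169 against 0 and 4.59. DESeq2 gave adjusted p-values between 3.75e-10 and 0.00126 for the 10 genes, Zfp939 among them.

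**Figure D1:**
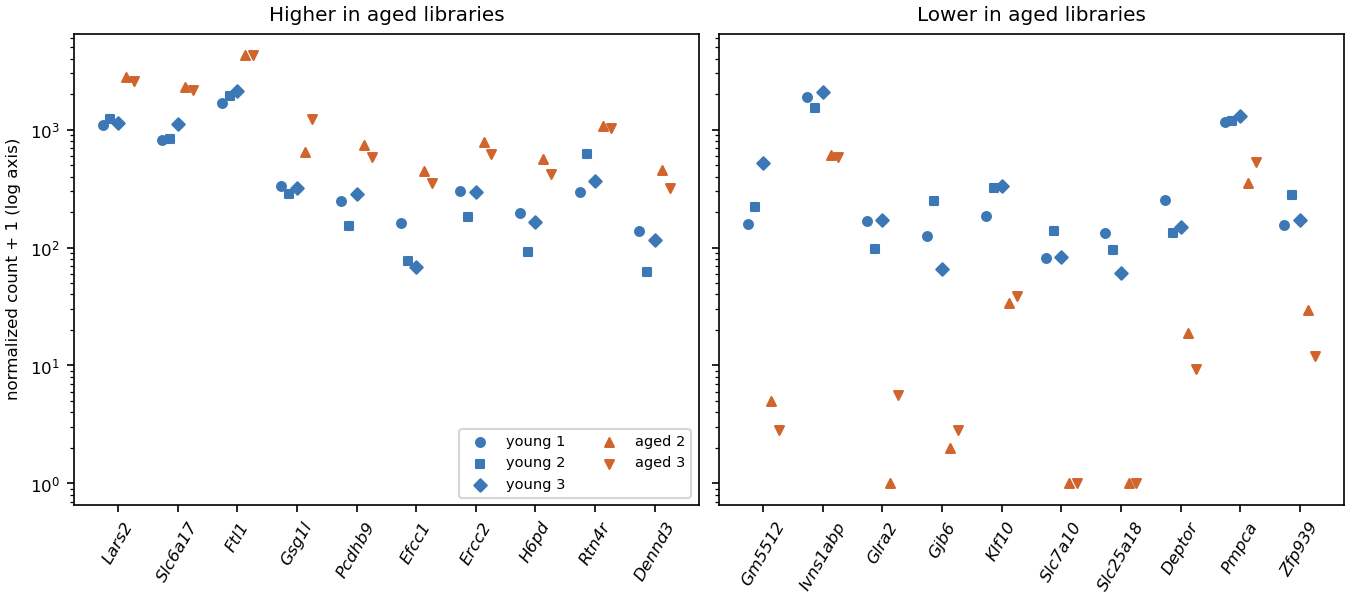
Normalized counts plus 1 on a log axis for the 10 genes with the smallest limma p in each direction among those whose groups do not overlap, 1 point per library (blue young, orange aged). Genes higher in aged libraries stay well above 0 in every library, while Slc7a10 and Slc25a18 sit at 0 in both aged libraries.

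The other 3 of the lower genes are known from astrocytes. Gjb6, the gap junction protein connexin 30, had 124, 248 and 64.8 normalized counts in young and 0.988 and 1.84 in aged libraries, which is 427 against 3 reads and a ratio of 98.5 (95% exact counting interval 33.5 to 480). Slc7a10, a transporter of small neutral amino acids, had 80.9, 138 and 81.6 in young libraries and no read in aged ones, at least 69.2-fold lower when 3 reads are allowed over the group. Slc25a18, a mitochondrial glutamate carrier, had 133, 94.4 and 59.5 in young libraries and no read in aged ones, at least 65.5-fold lower by the same floor. The floors and intervals cover counting error only. In bulk RNA, fewer nuclei of a type and less RNA in each of them cannot be told apart. In all, 74 tested genes had no read in both aged libraries and reads in every young one, and 12 showed the reverse. The reverse asks for 0 in 3 libraries rather than 2. It also asks for a higher level in the other group, since genes were tested by their mean over the 5 libraries. The 2 counts can therefore not be set against each other. The same 74 genes were at 0 in the aged pair alone, against 18 to 45 genes for each of the other 9 pairs of libraries. Each aged library had more genes at 0 (482 and 633) than the young ones (317 to 353). How many shared genes at 0 follow from that was not computed. By the size of the difference in group means, the genes without a read in aged libraries were led by Ano1, a calcium-activated chloride channel, with 25.9, 154 and 211 in young libraries and at least 94.1-fold lower in aged ones. In the other direction, Itih4, an inter-alpha-trypsin inhibitor heavy chain, had no read in young libraries and 138 and 37.7 in aged ones. Amd2 and Gm1987 had reads in aged replicate 2 alone, 550 and 311, where their near-identical copies Amd1 and Ccl21a stood at 319 and 0 against at least 987 and 55 in the other libraries. The split of reads between such copies can change these values and was not tested, so they are uncertain.

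Of the 41 gene lists, 40 had tested members. Their medians ran from −0.61 for oligodendrocyte markers to 0.60 for cytosolic ribosomal proteins. The list of mitochondrially encoded genes had 0 members in the table and was not analysed here. In limma and in edgeR, 0 members of any list were called.

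**Figure D2:**
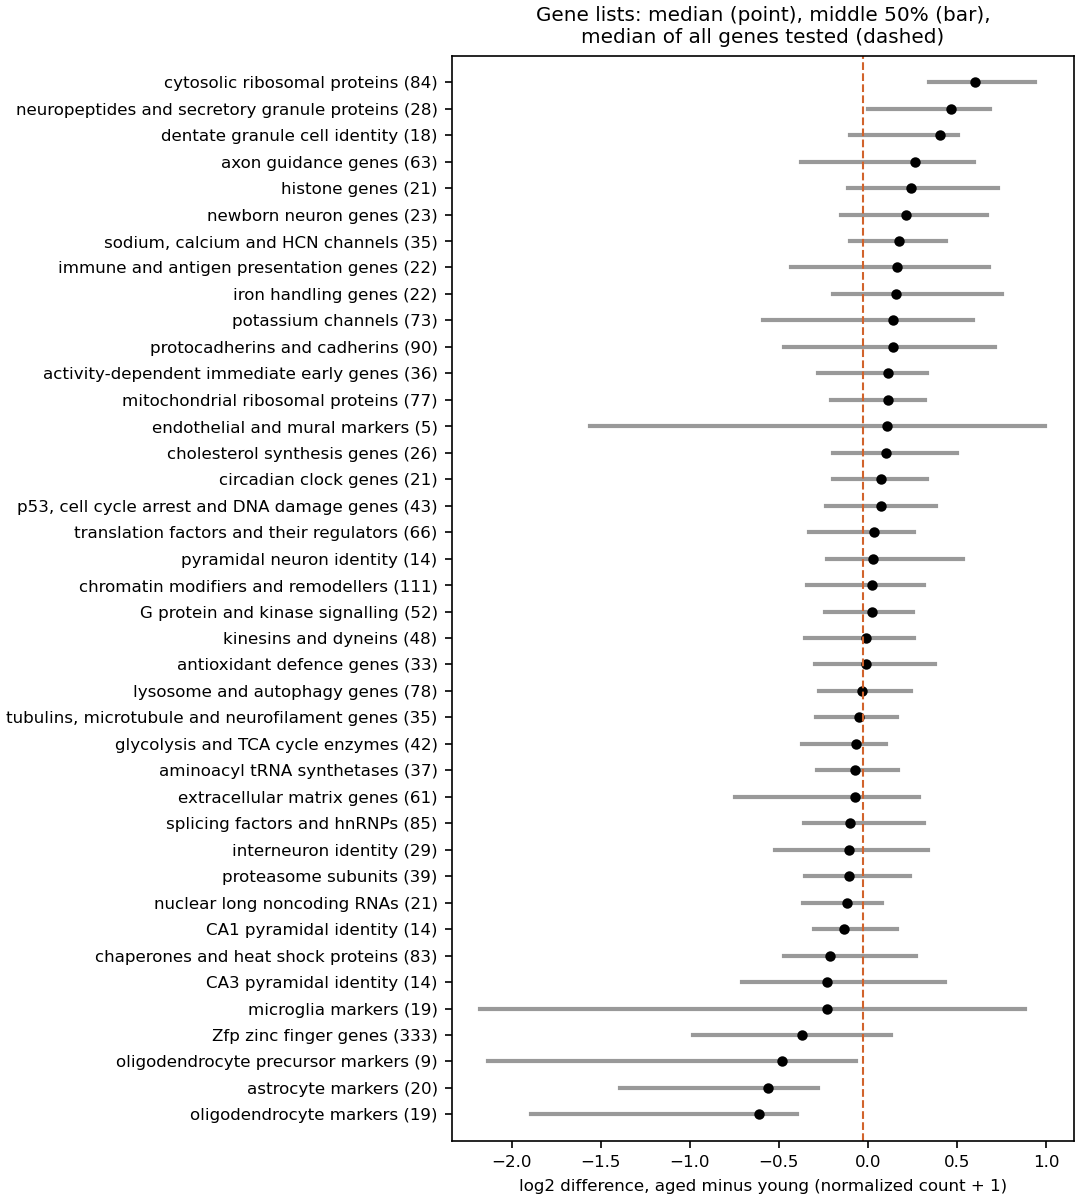
Median log2 difference, aged minus young, of the tested members of each gene list (points, number of members in brackets) with the middle 50% of members (bars), beside the median of all tested genes (dashed line, −0.025). Cytosolic ribosomal proteins are at the top with 0.60, and Zfp zinc finger genes lie at −0.37 above 3 lists of glial markers.

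Cytosolic ribosomal proteins, the protein parts of the translating ribosome, were higher in aged libraries as a family. Of 84 tested members, 77 were higher and 7 lower, with a median log2 difference of 0.60, and the middle 50% of members lay between 0.34 and 0.94. Members lay above in 51 cases (60.7% against 12.2% of all genes) and below in 1 (1.19% against 12.5%). With an unadjusted limma p up to 0.05, 18 were higher and 0 lower, against 2.9% and 5.04% of all genes. DESeq2 called 2 higher (against 0.27% of all genes), Rps19 and Rplp1, both named after their values were seen. Rps19, a protein of the small subunit, had 215, 173 and 193 normalized counts in young and 589 and 447 in aged libraries, a log2 difference of 1.41 ± 0.38 (SE) with a limma adjusted p of 0.441. Rplp1, of the stalk of the large subunit, had 168, 225 and 209 against 569 and 451. Both lay far above the young range in each aged library. The most abundant members were Rps2, with 1291, 1378 and 1299 against 2114 and 1902, and Rpl3, with 758, 1308 and 1042 against 1307 and 1428, where aged replicate 2 reached no higher than young replicate 2. The members with the largest differences among those above, Rpl26 and Rps20, had few reads. Rpl26 had 28, 9.54 and 53.2 against 88 and 82.7. Rps20 had 4.15 in young replicate 1, 59.4 and 58.6 in the other young libraries and 63.3 and 76.2 in aged ones, so that its difference of 1.41 rests on young replicate 1.

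Taken over the family, the summed level was 21133, 28913 and 23964 in young and 34362 and 36025 in aged libraries, with both aged libraries above the young range. The median member stood −0.21, 0.25 and −0.01 from its young mean in the young libraries and 0.64 and 0.62 from it in the aged ones. Without any 1 library, 71 to 81 of the 84 members were higher and the median stayed between 0.54 and 0.70. Under TMM scaling and median centring the median was 0.59 and 0.61. The share of Rn45s was higher in both aged libraries as well, and its part in these values was not tested. The other families of translation did not stand apart in this way. Mitochondrial ribosomal proteins had 50 of 77 members higher, a median of 0.11, 11 members above (14.3%) and 8 below (10.4%). Translation factors had 37 of 66 members higher and a median of 0.04, and aminoacyl-tRNA synthetases 16 of 37 and −0.07, with Lars2 their most abundant member.

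Messages of ribosomal proteins are known for a run of pyrimidines at their start, through which mTOR signalling controls their translation. The windows below run from 10 bases before to 20 after the transcription start in RefSeq (GRCm38.p6), read 5′ to 3′ on the strand of the gene. They are those of the 8 ribosomal protein genes with an entry and the largest differences among those above, with or without such a run. Capitals mark a run of at least 8 letters that are all C or T, and a window without capitals holds none.
Rpl26 (chr11:68901556-68901585, plus strand): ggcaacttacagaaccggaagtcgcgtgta
Rps19 (chr7:24884582-24884611, plus strand): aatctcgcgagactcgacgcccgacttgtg
Rpl37a (chr1:72711250-72711279, plus strand): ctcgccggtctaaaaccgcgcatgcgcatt
Rps24 (chr14:24490668-24490697, plus strand): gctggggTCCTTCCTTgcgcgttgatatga
Rpl13a (chr7:45128726-45128755, minus strand): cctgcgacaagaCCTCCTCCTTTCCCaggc
Rpl28 (chr7:4792955-4792984, plus strand): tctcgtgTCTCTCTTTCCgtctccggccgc
Rpl12 (chr2:32961702-32961731, plus strand): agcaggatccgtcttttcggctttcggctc
Rplp2 (chr7:141447641-141447670, plus strand): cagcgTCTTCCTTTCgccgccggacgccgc
Such a run stood in a window of 25 of 62 ribosomal protein genes with an entry (40.3%), against 1439 of 10355 tested genes (13.9%). Any start of a gene was counted, on the strand of the gene alone. Inside the family, the median difference was 0.50 for the members with a run and 0.66 for those without. A shorter run, or one outside the window, counts as none. The split can therefore not tell whether the feature goes with the size of the difference. Among members above, 38.9% held a run, and among the remaining ones 42.3%. Over all tested genes, the median was −0.02 with a run and −0.03 without. Among mitochondrial ribosomal proteins 8.82% of 68 genes with an entry held a run.

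Zfp genes, which mostly encode C2H2 zinc finger proteins that bind DNA and of which many recruit silencing complexes to repeats, were lower in aged libraries as a family. Of 333 tested members, 234 were lower and 99 higher, with a median log2 difference of −0.37. Members lay below in 76 cases (22.8% against 12.5% of all genes) and above in 18 (5.41% against 12.2%). With an unadjusted limma p up to 0.05, 43 were lower and 3 higher, against 5.04% and 2.9% of all genes. DESeq2 called 12 lower and 1 higher, against 0.875% and 0.27% of all genes. Zfp939 had 156, 277 and 170 normalized counts in young and 28.7 and 11 in aged libraries, a log2 difference of −3.37 ± 0.69 (SE) with a limma adjusted p of 0.354. Zfp764 had 49.8, 108 and 38.2 in young libraries and no read in aged ones, at least 44.5-fold lower. Zfp773 had 137, 93.3 and 25.7 in young libraries and 0.988 and 0 in aged ones. That is 249 reads against 1, a ratio of 172 (95% exact counting interval 30.7 to 6830). The floor and the interval cover counting error only and leave out the spread between mice. The most abundant members overlapped between ages. Zfp445 had 5899, 4011 and 4049 in young libraries and 4998 and 2808 in aged ones, and Zfp950 had 3882, 2619 and 3402 against 2631 and 2882.

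The lower level was seen in rare and abundant Zfp genes alike. In the lower part of the family by mean level (10.1 to 174), 116 of 166 members were lower with a median of −0.61, where all genes in that range had a median of −0.08. In the upper part (174 to 4350), 118 of 167 members were lower with a median of −0.29, beside −0.01 for all genes in that range, and 42 lay below (25.1% against 12.5% in that range). The summed level was 116229, 99309 and 101462 in young and 90119 and 83742 in aged libraries, with both aged libraries under the young range. Without any 1 library, 197 to 236 members were lower and the median stayed between −0.29 and −0.41. Many members are near-copies of one another in genomic clusters, so that single members are uncertain where reads could be split between them.

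**Figure D3:**
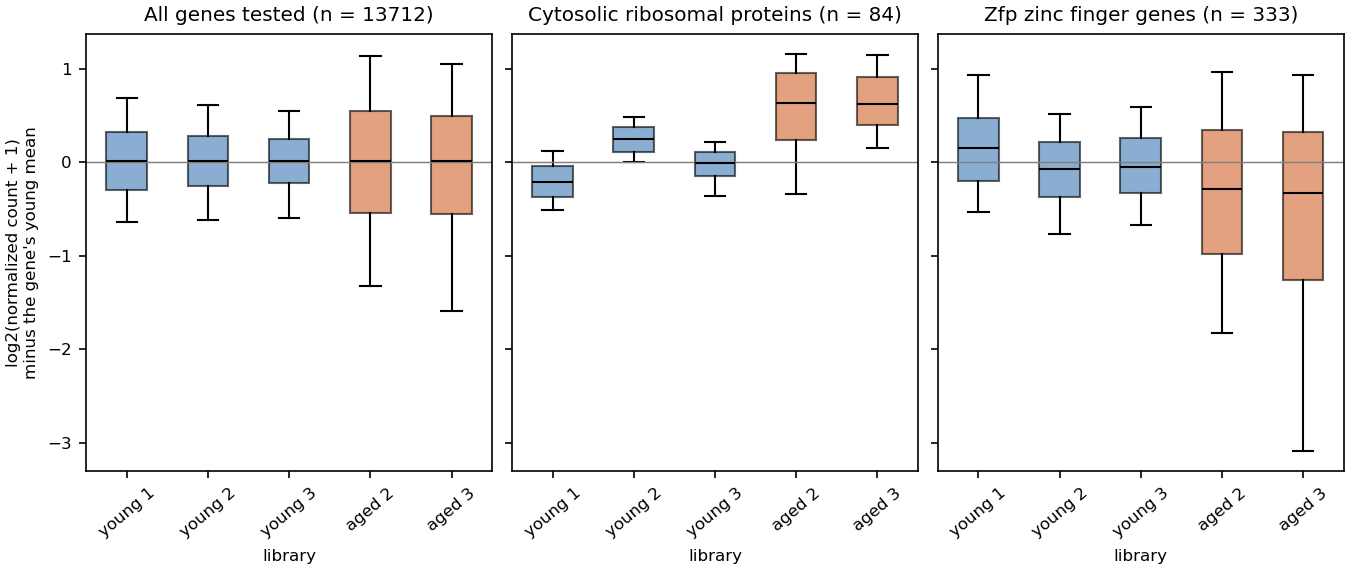
Distribution over genes of log2(normalized count + 1) minus the gene's young mean in each library (box, middle 50%; line, median; whiskers, 10th to 90th percentile), for all tested genes, 84 cytosolic ribosomal proteins and 333 Zfp genes. The aged medians of the ribosomal proteins are 0.64 and 0.62 and those of the Zfp genes −0.29 and −0.32, while medians of all genes stay near 0. Young boxes are narrower partly because young values enter the mean they are set against.

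Differences also moved with the GC content of transcripts. Over 13186 tested genes with a GENCODE transcript, the median log2 difference was −0.25 in the lowest of 4 equal bins of GC content (31% to 44.8%), −0.09 and 0.05 in the next ones and 0.20 in the highest (54.4% to 72.5%). In the lowest bin 5.76% of genes lay above and 19.9% below, and in the highest 20.5% above and 6.49% below. Set against the young mean, the median of the lowest and the highest bin was 0.12 and −0.07 in young replicate 1, −0.09 and 0.11 in young replicate 2 and 0.01 and 0.02 in young replicate 3. It was −0.28 and 0.33 in aged replicate 2 and −0.14 and 0.17 in aged replicate 3. Young values enter the mean they are set against, so that slopes of young libraries offset one another in part. In 4 equal bins of transcript length the medians were 0.08, −0.08, −0.07 and −0.03 from short to long.

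Ribosomal proteins were higher at each level of GC content, with medians of 0.57, 0.48, 0.70 and 0.62 from the lowest to the highest bin and 8 of 10, 20 of 24, 26 of 26 and 23 of 24 members higher. Zfp genes were not lower at each level. They had medians of −0.54 (138 of 169 lower) and −0.36 (44 of 68) in the 2 bins with the least GC, where all genes had −0.25 and −0.09, then 0.05 (24 of 48 lower) and −0.06 (26 of 46) beside 0.05 and 0.20. The family lies mostly in the lowest bin, with 169 of 331 members, and the part of base composition in its difference was not tested beyond these bins. Of the 84 ribosomal proteins, 72 lie in the bin with the shortest transcripts, where their median was 0.58 beside 0.08 for all genes.

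**Figure D4:**
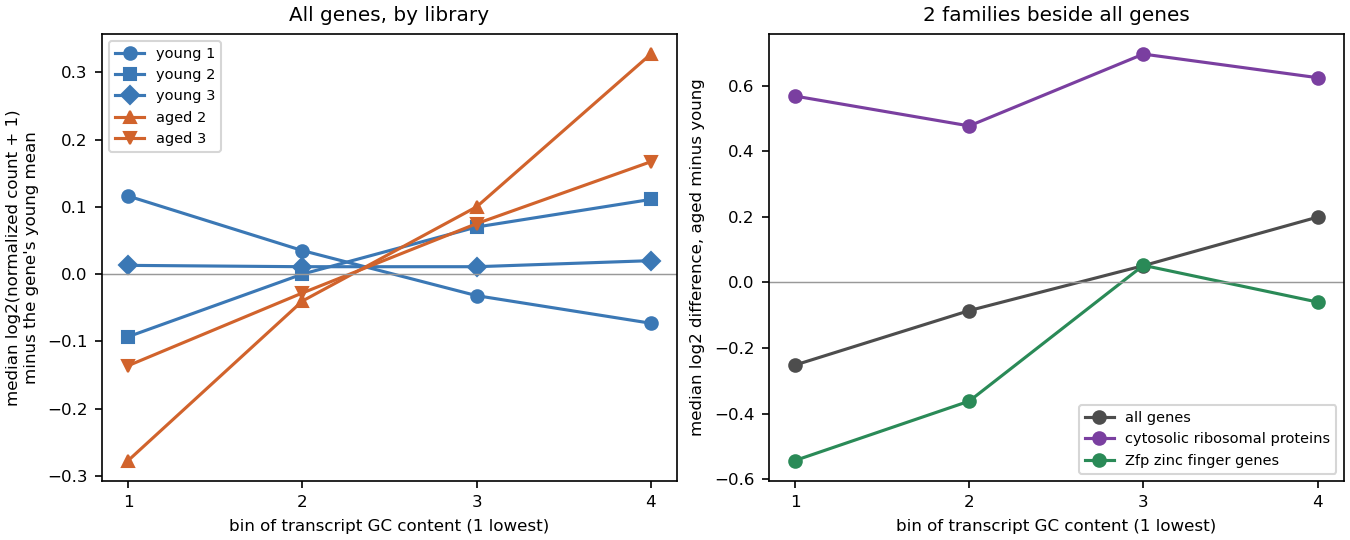
Left, median over genes of log2(normalized count + 1) minus the gene's young mean, by bin of transcript GC content (1 lowest, 4 highest) and library; right, median log2 difference, aged minus young, of all genes, ribosomal proteins and Zfp genes in each bin. The aged libraries run upward from −0.28 and −0.14 to 0.33 and 0.17, and young replicate 1 runs downward.

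Other genes of RNA handling and chromatin showed no common direction. Splicing factors and hnRNPs had 40 of 85 members higher and 45 lower with a median of −0.10, but 17 lay below (20%) and 8 above (9.41%). Elavl1, an RNA-binding protein that stabilizes messages, had 763, 681 and 568 normalized counts in young and 531 and 213 in aged libraries, and Hnrnpl, a splicing regulator, 251, 201 and 198 against 535 and 319. Ddx5, an RNA helicase named because DESeq2 called it (adjusted p = 0.0252), had 8438, 7836 and 9361 against 4182 and 5343. Its aged values lay well under the young ones at high counts. Of 111 chromatin modifiers, 60 were higher with a median of 0.02, 16 above (14.4%) and 9 below (8.11%). Trim28, the corepressor through which many zinc finger proteins act, was chosen after its values were seen and had 583, 635 and 568 against 1489 and 1085, a log2 difference of 1.09 with a DESeq2 adjusted p of 0.0214. Smarca1, a chromatin remodelling ATPase, had 319, 353 and 388 against 213 and 112.

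Among nuclear long noncoding RNAs, 15 of 21 members were lower with a median of −0.12, and 1 lay below (4.76%) and 0 above. That 1 was Tug1, with 1815, 1736 and 1615 normalized counts in young and 698 and 897 in aged libraries. Malat1, an RNA of nuclear speckles, had 108867 to 185454 in young and 142067 and 165956 in aged libraries and overlapped between ages. Meg3, an imprinted RNA that is abundant in neurons, had 180203 in aged replicate 2 and 54950 in aged replicate 3, on either side of all young values. Histone genes had 13 of 21 members higher with a median of 0.24 that was −0.01 without aged replicate 3 and 0.60 without aged replicate 2. Hist2h2be lay below with 213, 127 and 168 against 26.7 and 29.4.

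Neuropeptides and proteins of secretory granules, which neurons release from dense core vesicles, had 21 of 28 members higher with a median of 0.46. Members lay above in 10 cases (35.7% against 12.2%) and below in 1 (3.57%). With an unadjusted limma p up to 0.05, 2 were higher and 0 lower, against 2.9% and 5.04% of all genes, and DESeq2 called none. Sst, the peptide somatostatin of a class of interneurons, had 598, 753 and 871 normalized counts in young and 1127 and 1166 in aged libraries. Npy, neuropeptide Y, had 498, 676 and 808 against 830.2 and 1150.2, and Cck, cholecystokinin, 2731, 5443 and 4457 against 5634 and 5691. In these 3 peptides, of which Sst and Npy were named after their values were seen, young replicate 1 was the lowest library and both aged values lay over the highest young one, for Npy and Cck by a small step. Nts (neurotensin) and Cort (cortistatin), with the largest differences, had few reads, with at most 39.4 and 21.2 in young and at least 65.2 and 31.6 in aged libraries. The abundant granule proteins Cpe and Chgb, a peptide processing enzyme and a chromogranin, overlapped, with log2 differences of 0.10 and −0.19. The median of the list was 0.25 without young replicate 1, 0.21 without aged replicate 3 and 0.59 without aged replicate 2.

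Genes of interneuron identity, a list that also holds Cck, gave no common direction. Of 29 tested members, 13 were higher and 16 lower with a median of −0.10, and 7 lay below (24.1%) and 3 above (10.3%). Gad1 had 1601, 1654 and 2046 normalized counts in young and 1182 and 1570 in aged libraries, and Gad2, the other enzyme of GABA synthesis, 651, 909 and 902 against 578 and 562. Kcnc2, a potassium channel of fast-spiking cells, had 3634, 3855 and 3656 against 2801 and 2380. These 3 genes were moderately lower, with log2 differences of −0.37, −0.51 and −0.52. Slc32a1, the vesicular GABA transporter, had 17.6 to 41.3 in young and 33.6 and 50.5 in aged libraries and overlapped. The list's median changed sign with the library left out, from −0.29 without young replicate 1 to 0.04 without young replicate 2.

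Dentate granule cell identity genes had 13 of 18 members higher with a median of 0.41, yet 2 lay above (11.1%) and 4 below (22.2%). The members above were Gsg1l and Plk5, a polo-like kinase of neurons, with 429, 488 and 308 normalized counts in young and 715 and 1174 in aged libraries. C1ql2, a secreted synaptic protein of mossy fibres, overlapped with 1549, 2731 and 1635 against 2462 and 4614, and Prox1, the fate factor of these cells, with 116 to 440 against 330 and 417. Of the members below, the most abundant was Rfx3, a transcription factor of ciliary genes, with 2855, 2024 and 1814 against 1611 and 1598. Aged replicate 3 was the highest library for both Gsg1l and C1ql2, and the list's median was 0.02 without it and 0.15 without young replicate 3. CA1 genes (6 of 14 higher, median −0.14) and CA3 genes (6 of 14, −0.23) had no common direction, and Wfs1, Fibcd1, Grik4 and Cpne4 overlapped between ages. Genes of pyramidal neurons in general had a median of 0.03. Among them Neurod6, a transcription factor of excitatory neurons, lay below with 1321, 2158 and 2202 against 822 and 931, and DESeq2 called it (adjusted p = 0.039). Newborn neuron genes had 16 of 23 members higher with a median of 0.21, 3 above (13%) and 0 below, with Nnat at 550, 579.9 and 667 against 941 and 1194 and Plxna3, a semaphorin receptor, at 377, 242 and 347 against 804 and 651. The median of that list was 0.07 without aged replicate 3.

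Markers of astrocytes and of the oligodendrocyte lineage were lower in aged libraries, mostly through aged replicate 2. The sort for NeuN is meant to leave glial nuclei out, and how many were carried over was not tested. Astrocyte markers had 18 of 20 members lower with a median of −0.56, and 5 lay below (25% against 12.5%) and 0 above. Their summed level was 11800, 10600 and 7840 in young and 6240 and 9780 in aged libraries, so that aged replicate 3 lay inside the young range, and the median was −0.06 without aged replicate 2 and −1.19 without aged replicate 3. Beside Gjb6, Gabrg1, a GABA receptor subunit found in these cells, had 117, 152 and 115 against 18.8 and 0.919, and DESeq2 called both. Defining markers were present in all libraries, with Gfap at 321 to 601 in young and 274 and 329 in aged ones, Slc1a3 at 359 to 610 against 336 and 339, and Aqp4 at 47 to 124 against 26.7 and 105.

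Oligodendrocyte markers had 16 of 19 members lower with a median of −0.61, 2 below (10.5%) and 1 above (5.26%). Their sum was 4460, 9820 and 8540 in young and 4210 and 6810 in aged libraries, and young replicate 1 was nearly as low as aged replicate 2. The median was −0.05 without aged replicate 2 and −1.37 without young replicate 1. Mog, a myelin protein, had 62.2 to 192 in young libraries, 0 in aged replicate 2 and 91.9 in aged replicate 3, while Mbp overlapped. Precursor markers had 7 of 9 members lower (sums of 1510 to 1680 against 1080 and 1320), with Pdgfra at 0 in aged replicate 2 and at 39.5 in aged replicate 3. Microglia markers had 9 of 19 members higher, with sums of 908 to 1420 in young and 716 and 1380 in aged libraries. Only 5 endothelial and mural markers were tested, and their sums of 217 to 296 against 137 and 236 rested on few reads, with Cldn5 at 0 in young replicate 3 and aged replicate 3.

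**Figure D5:**
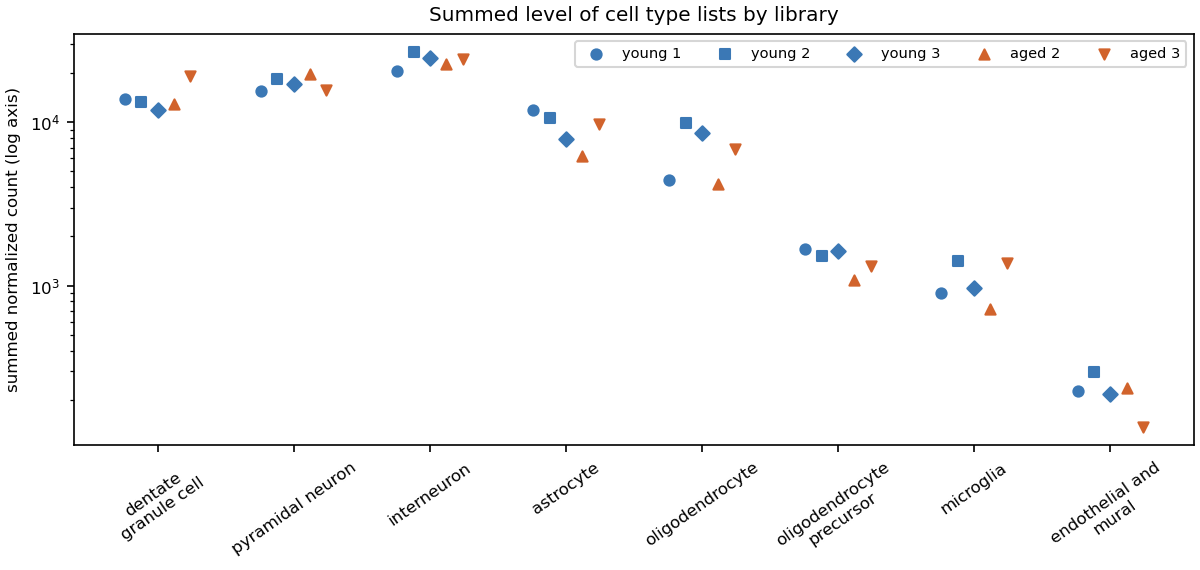
Summed normalized count of the members of 8 cell type lists on a log axis, 1 point per library (blue young, orange aged). Neuronal lists lie between 11900 and 26700, astrocyte markers between 6240 and 11800, and the lists of precursors, microglia and vessels at or below 1680, and aged replicate 2 is the lowest library for astrocytes, oligodendrocytes, precursors and microglia.

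Ion channels spread in both directions. Potassium channels had 42 of 73 members higher with a median of 0.14, 13 above (17.8%) and 12 below (16.4%). Kcna1, an abundant channel of the axon, lay above by a small step, with 3088, 3340 and 3139 normalized counts in young against 3528 and 4350 in aged libraries. Sodium, calcium and HCN channels had 23 of 35 members higher with a median of 0.17, 6 above (17.1%) and 3 below (8.57%). The median was 0.06 without aged replicate 2 and 0.29 without aged replicate 3. The most abundant members, Scn2b and Cacna1e, overlapped between ages. The members with the largest differences went against the list's median. Cacng5, a transmembrane AMPA receptor regulatory protein, was lower with 377, 761 and 529 against 118 and 263, and Scn9a, a sodium channel, with 344, 516 and 412 against 292 and 183. G protein and kinase signalling genes were balanced (27 of 52 higher, 6 above and 6 below, 11.5% each). DESeq2 called 3 of them lower, against 0.875% of all genes. Among these were Deptor and Ppp3r2, a calcineurin subunit with 70.5, 37.1 and 47.9 against 2.96 and 3.67.

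Immediate early genes, which neurons switch on after activity, had 20 of 36 members higher with a median of 0.11, 7 above (19.4%) and 2 below (5.56%). Ier5 was higher with 143, 58.3 and 98.5 normalized counts in young against 281 and 221 in aged libraries, while Klf10 was the member furthest below. Arc, a regulator of AMPA receptor traffic, and Fos, a transcription factor named here as the best known member, varied inside each group, with Arc at 2028, 3053 and 4634 against 2851 and 1693 and Fos at 221, 329 and 533 against 438 and 208. Circadian clock genes had 14 of 21 members higher with a median of 0.08, 4 above (19%) and 1 below. Ciart, a repressor in the clock, had 173, 123 and 142 against 418 and 254, Csnk1d, a kinase of the PER proteins, 779.9, 1169 and 1127 against 1770.1 and 1929, and Per1, named after its values were seen, 874, 639 and 1015 against 1390 and 1045. Per3 and Tef overlapped. The times of day at which mice were taken were not found in the sources used here.

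Among genes of adhesion and wiring, protocadherins and cadherins had 52 of 90 members higher with a median of 0.14, 20 above (22.2% against 12.2%) and 10 below (11.1%). Of them, 8 were higher and 6 lower with an unadjusted limma p up to 0.05, against 2.9% and 5.04% of all genes. The clustered protocadherins give each neuron a combination of surface identities. Their Pcdhg genes had 17 of 22 members higher with a median of 0.34 and summed to 5221, 5293 and 5704 in young and 6930 and 8368 in aged libraries. Pcdhb genes had 11 of 21 members higher, with sums of 3392, 2752 and 3132 against 4704 and 4197, and Pcdha genes 8 of 15, with sums of 2585, 3808 and 3191 against 3488 and 3065. The sums of the Pcdhb and Pcdhg genes were thus above the young range, and those of the Pcdha genes inside it. Members of the Pcdha and Pcdhg clusters share their last exons, so that single members are uncertain, among them Pcdhgb7 with 129, 43.5 and 2.66 against 207 and 356. Outside the clusters, Pcdh9 had 30432, 15119 and 21762 against 13793 and 14148, and Pcdh20 had 2768, 3342 and 3800 against 859 and 2411.

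Axon guidance genes had 39 of 63 members higher with a median of 0.26, 11 above (17.5%) and 8 below (12.7%). Of them, 8 were higher and 4 lower with an unadjusted limma p up to 0.05, against 2.9% and 5.04% of all genes. The median was 0.01 without aged replicate 3. Unc5a, a netrin receptor and the member DESeq2 called (adjusted p = 0.0116), had 1436, 1408 and 1230 normalized counts in young and 2441 and 2863 in aged libraries. Sema4g and Sema5b, both semaphorins, went opposite ways, with 16.6, 85.9 and 51.5 against 297 and 134 and with 417, 504 and 362 against 78.1 and 206. Extracellular matrix genes (28 of 61 higher, median −0.07), kinesins and dyneins (24 of 48, −0.01) and genes of tubulins, microtubules and neurofilaments (12 of 35, −0.05) had medians near that of all genes. Efemp1, a fibulin, was lower with 47.7, 141 and 97.6 against 3.95 and 5.51, and Map1a, a microtubule protein of dendrites, was higher with 761, 776 and 516 against 1499 and 1090.5.

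Genes of protein quality control stood lower in aged replicate 2 and in young replicate 1, and not in aged replicate 3. Chaperones and heat shock proteins had 53 of 83 members lower with a median of −0.21, 10 below (12%) and 7 above (8.43%). The median member stood −0.32 from its young mean in aged replicate 2 and 0.08 in aged replicate 3, and −0.26 in young replicate 1. Hspa8, the constitutive chaperone HSC70, had 18825, 26514 and 28082 normalized counts in young and 12322 and 18949 in aged libraries. Proteasome subunits (24 of 39 lower, median −0.11) and lysosome and autophagy genes (42 of 78 lower, −0.03) had medians of −0.24 and −0.20 in aged replicate 2, −0.25 and −0.20 in young replicate 1 and 0.19 and 0.19 in aged replicate 3. Psmd6 and Psmc2, both of the regulatory particle of the proteasome, lay below with 896, 1131 and 1037 against 508 and 616 and with 715, 804 and 962 against 329 and 638.

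Metabolic lists had medians near that of all genes, with glycolysis and TCA cycle enzymes at −0.07 (19 of 42 higher) and antioxidant defence genes at −0.01 (16 of 33). Hkdc1, a hexokinase-like gene, had 84, 82.7 and 33.7 normalized counts in young and 4.94 and 2.76 in aged libraries. Cholesterol synthesis genes had 14 of 26 members higher with a median of 0.10 that was 0.47 without aged replicate 2 and −0.18 without aged replicate 3, and 6 lay above (23.1%) and 2 below (7.69%). Scap, the sterol sensor that escorts SREBP, had 1055, 1384 and 1486 against 2738 and 2391 and was called by DESeq2 (adjusted p = 0.0316).

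Among lists linked to brain aging, genes of p53, cell cycle arrest and DNA damage had 23 of 43 members higher with a median of 0.07, 7 above (16.3%) and 4 below (9.3%). Ercc2 was higher and Pms2, a mismatch repair protein, lower, with 488, 357 and 446 normalized counts in young and 170.0 and 133 in aged libraries, and DESeq2 called both. Immune and antigen presentation genes had 13 of 22 members higher with a median of 0.16, 2 above (9.09%) and 1 below (4.55%). H2-D1, a heavy chain of MHC class I, had 382 to 643 in young libraries, 455 in aged replicate 2 and 1076 in aged replicate 3. Iron handling genes had 12 of 22 members higher with a median of 0.16, 5 above (22.7%) and 1 below (4.55%). Of them, 2 were higher and 2 lower with an unadjusted limma p up to 0.05, against 2.9% and 5.04% of all genes. The median was 0.34 without aged replicate 2, −0.05 without aged replicate 3 and −0.06 without young replicate 3. The member below was Ncoa4, the receptor for ferritin breakdown, named after its values were seen, with 365, 618 and 512 normalized counts against 241 and 295. Among members above next to Ftl1, Fth1, the ferritin heavy chain, had 2487, 5103 and 4431 against 5880 and 6603, and Slc39a14, a metal importer, 87.1, 94.4 and 102 against 204 and 310.5.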

How the data were processed

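RNA of NeuN-sorted hippocampal nuclei was sequenced from 3 young and 2 aged wild-type male mice. The authors used STAR with the mm10 transcriptome and RSEM for gene counts, and deposited normalized counts (a signal scaled by DESeq2 size factors) for each library. The deposited table also holds the authors' own means, fold changes, standard errors, statistics and p-values, which were not used, and 0 library columns were left unused. The study's methods describe Smart-seq2 libraries made after TRI Reagent extraction, while GEO's labels give strand-specific libraries of polyA RNA made after a column extraction. Which of these holds for these libraries is not known. The annotation release is not given in the sources used here.

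Groups and replicate numbers came from the labels. Each normalized count divided by its library's step gave whole reads for 100% of genes, with no value further than 4.95e-10 from a whole number. Genes with a mean of at least 10 over the 5 libraries were compared with limma 3.58.1 in R 4.3.3 on log2(normalized count + 1), with a variance trend, no covariate and Benjamini-Hochberg adjustment. Calls needed an adjusted p up to 0.05 and a log2 difference of 0.5 or more in either direction. edgeR 4.0.16 (quasi-likelihood) and DESeq2 1.42.0, fitted on all genes and filtered afterwards, were run on the recovered reads. Further alternatives were pseudocounts of 0.5 and 10, no filter, a mean of at least 100, TMM scaling, median centring, no limit on the log2 difference, leaving out each library and a replicate block. The scripts were tested on simulated data. With 3 and 2 libraries, of between 7969282 and 9537872 reads, the residual SD of a gene was 0.32 (median, log2) among the most abundant 3428 genes and 1.28 among the rarest 3428.

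The members and gene lists were chosen with earlier results of these data known, so the lists are no independent evidence. Named were, in each direction, the 10 genes with the smallest limma p among those with a log2 difference of at least 0.5 and no overlap, up to 4 members of each list (the 2 most abundant and the 2 with the largest difference without overlap), up to 5 genes in each direction with no read in the other group, and defining cell type markers. Genes outside that rule are said to be named after their values were seen or because DESeq2 called them. GC content and length are those of the longest GENCODE M21 transcript of a symbol (13186 of 13712 genes matched). Positions and start windows are from RefSeq on GRCm38.p6, the build of mm10, and 62 of 84 ribosomal protein genes had a window. A read floor of 3 over the group was used for genes without reads. A few results are not reported here.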

Additional observations from a re-analysis of the deposited data

How the results depend on the processing

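The limma calls stayed at 0 in both directions under every alternative except DESeq2, with 37 higher and 120 lower, also with no limit on the log2 difference, without each library in turn and with a replicate block. The residual SD on the log2 scale was wider in the rarest genes (median 1.28) than in the most abundant ones (0.323), so that differences of rare genes are the least certain. Leaving out 1 library gives fewer values to overlap, so that the genes above numbered 2175 to 4206 and those below 2335 to 4116. The medians of 12 lists, among them cytosolic ribosomal proteins and Zfp genes, moved by less than the spread between libraries under each alternative. Of these, the sign turned without 1 library for iron handling genes (−0.06 to 0.343), CA1 genes (−0.238 to 0.078), glycolysis and TCA cycle enzymes (−0.225 to 0.085), antioxidant genes (−0.105 to 0.156) and translation factors (−0.064 to 0.074).

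Same-numbered young and aged libraries are not said to be paired, and their deviations from the group means correlated at −0.054 (replicate 2) and 0.024 (replicate 3). The 2 aged libraries deviate from their mean by mirrored amounts. Young replicates 2 and 3 therefore gave 0.054 and −0.024 with the aged library of the other number. These values alone cannot tell whether libraries were paired. With a replicate block, which leaves young replicate 1 without a partner, 0 genes were called and list medians moved to 0.01 for splicing factors, 0.013 for potassium channels, −0.073 for immediate early genes, 0.329 for circadian clock genes, −0.188 for tubulin, microtubule and neurofilament genes, −0.164 for extracellular matrix genes, 0.143 for pyramidal neuron genes, −0.286 for interneuron genes, −1.206 for oligodendrocyte precursor markers and 0.064 for immune genes.

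With no filter, medians moved to −0.001 for histone genes, −0.141 for extracellular matrix genes, −0.87 for microglia markers and 0.087 for immune genes, and with a mean of at least 100 to −0.077 for histone genes, 0.233 for potassium channels, −0.008 for extracellular matrix genes, 0.65 for microglia markers and 0.32 for immune genes, where other members enter. The medians of extracellular matrix, pyramidal neuron and immune genes were 0.057, 0.116 and 0.313 in edgeR and 0.065, 0.124 and 0.322 in DESeq2, and that of extracellular matrix genes was 0.007 with a pseudocount of 10. The cause of these shifts was not tested.

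Without aged replicate 3 at the low end and aged replicate 2 at the high end, medians ran from −0.054 to 0.183 for mitochondrial ribosomal proteins, −0.011 to 0.603 for histone genes, −0.318 to 0.08 for chaperones, −0.196 to 0.19 for lysosome genes, −0.179 to 0.473 for cholesterol genes, −0.153 to 0.269 for immediate early genes, 0.212 to 0.585 for neuropeptides and −1.188 to −0.064 for astrocyte markers. With these libraries the other way round, they ran from −0.125 to 0.232 for chromatin modifiers, −0.044 to 0.137 for G protein signalling, −0.225 to 0.023 for kinesins and −0.062 to 0.237 for pyramidal neuron genes. From without young replicate 1 to without aged replicate 2, they ran from −0.252 to 0.19 for proteasome subunits, −0.164 to −0.005 for extracellular matrix genes, −0.328 to 0.074 for CA3 genes and −1.206 to −0.234 for oligodendrocyte precursor markers. From without aged replicate 3 to without young replicate 1, they ran from 0.018 to 0.382 for dentate genes and 0.065 to 0.306 for newborn neuron genes. Low and high ends lay without aged replicate 2 and young replicate 2 for potassium channels (−0.04 to 0.206) and endothelial markers (−1.66 to 0.891), and without young replicate 2 and aged replicate 2 for protocadherins (0.079 to 0.433) and immune genes (0.024 to 0.46). They lay without young replicate 2 and aged replicate 3 for splicing factors (−0.097 to 0.08), without aged replicate 2 and young replicate 1 for clock genes (−0.024 to 0.329), and without aged replicate 3 and young replicate 3 for axon guidance genes (0.008 to 0.268). Without young replicate 1 the low ends were −0.188 for tubulin genes, which reached 0.024 without young replicate 3, and −0.286 for interneuron genes, which reached 0.039 without young replicate 2.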
